A study of Mus musculus with 9 samples.

Results

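The genes described here encode enzymes that make prostaglandins and receptors that bind them. They were chosen by name: the cyclooxygenase genes Ptgs1 and Ptgs2, the terminal synthase genes Ptges, Ptges2 and Ptgis, and the receptor genes Ptger1, Ptger2, Ptger3 and Ptger4. Of these 9 genes, 7 had a probe set with exactly 1 gene symbol in the array annotation, among 22180 genes in all. Each of the 7 had a single such probe set. Ptgs1 and Ptger1 were not analysed here. The 9 arrays, each of 1 colour, hold RNA of mouse podocytes grown in culture and differentiated for 11 days at 37 °C; podocytes are epithelial cells that wrap the capillaries of the kidney filter. 3 arrays came from cells treated for 16 hours with 2.5 µM thapsigargin and 10 µM forskolin, 3 from cells treated for 16 hours with 2.5 µM thapsigargin alone, and 3 from cells given the vehicle DMSO. Thapsigargin inhibits SERCA, the calcium pump of the endoplasmic reticulum, and so empties its calcium store, and forskolin raises cAMP by activating adenylyl cyclase. There was no group with forskolin alone. Arrays of a group are labelled as biological replicates with no word on what was separate, so p-values cover the spread between these arrays, which may be technical.

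Prostaglandins are made from arachidonic acid, which phospholipases A2 cut from membrane lipids. The cyclooxygenases turn arachidonic acid into prostaglandin H2; Ptgs2 encodes the inducible form and Ptgs1 the form that most cells hold constantly. Terminal synthases then make prostaglandin E2 (PGE2) or prostacyclin, and PGE2 acts on the EP receptors, of which EP2 and EP4 raise cAMP while EP3 lowers it. Podocytes are known to express cyclooxygenase-2 and EP4, and both have been studied in glomerular injury.

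All values are log2 values after RMA, a procedure that corrects background, equalises the arrays and summarises probes. Values of different genes come from different probes, so levels were compared between groups and not between genes. The lower quartile of the deposited values of an array lay between 4.53 and 4.59, the median between 5.80 and 5.88 and the upper quartile between 7.61 and 7.75. Pearson correlations over all probe sets were 0.989 to 0.993 within groups and 0.966 to 0.992 between groups.

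The enzyme gene Ptgs2 rose with thapsigargin and rose further when forskolin was present, and the receptor gene Ptger4 fell with thapsigargin. The synthase gene Ptges2 rose slightly with thapsigargin. Ptges, Ptgis and Ptger3 passed the test in none of the 3 comparisons. Ptger2, whose values lay below the lower quartile of every array, passed downward in 1 comparison. A gene was called at a limma p-value below 0.05 after Benjamini-Hochberg adjustment over all 22180 genes. Thapsigargin against DMSO called 2 members higher and 1 lower, where 18.2% and 16.9% of all genes were called in these directions. Thapsigargin with forskolin against thapsigargin called 1 higher and 0 lower in limma, where 3.70% and 4.17% of all genes were called; at an unadjusted p below 0.05 the count of lower members was also 0. Thapsigargin with forskolin against DMSO called 1 higher and 2 lower, where 17.9% and 16.7% of all genes were called. The comparisons share arrays and are not independent of each other. In RNA of whole cultures, fewer cells of a type and less RNA per cell cannot be told apart.

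The median log2 change of the 7 members was -0.11 for thapsigargin against DMSO, -0.07 for thapsigargin with forskolin against thapsigargin and -0.10 for thapsigargin with forskolin against DMSO. The medians over all genes were -0.04, -0.01 and -0.04 in the same order. The members thus did not move in 1 direction, and against DMSO the changes of Ptgs2 and Ptger4 were larger in size than those of the other 5.

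**Figure D1:**
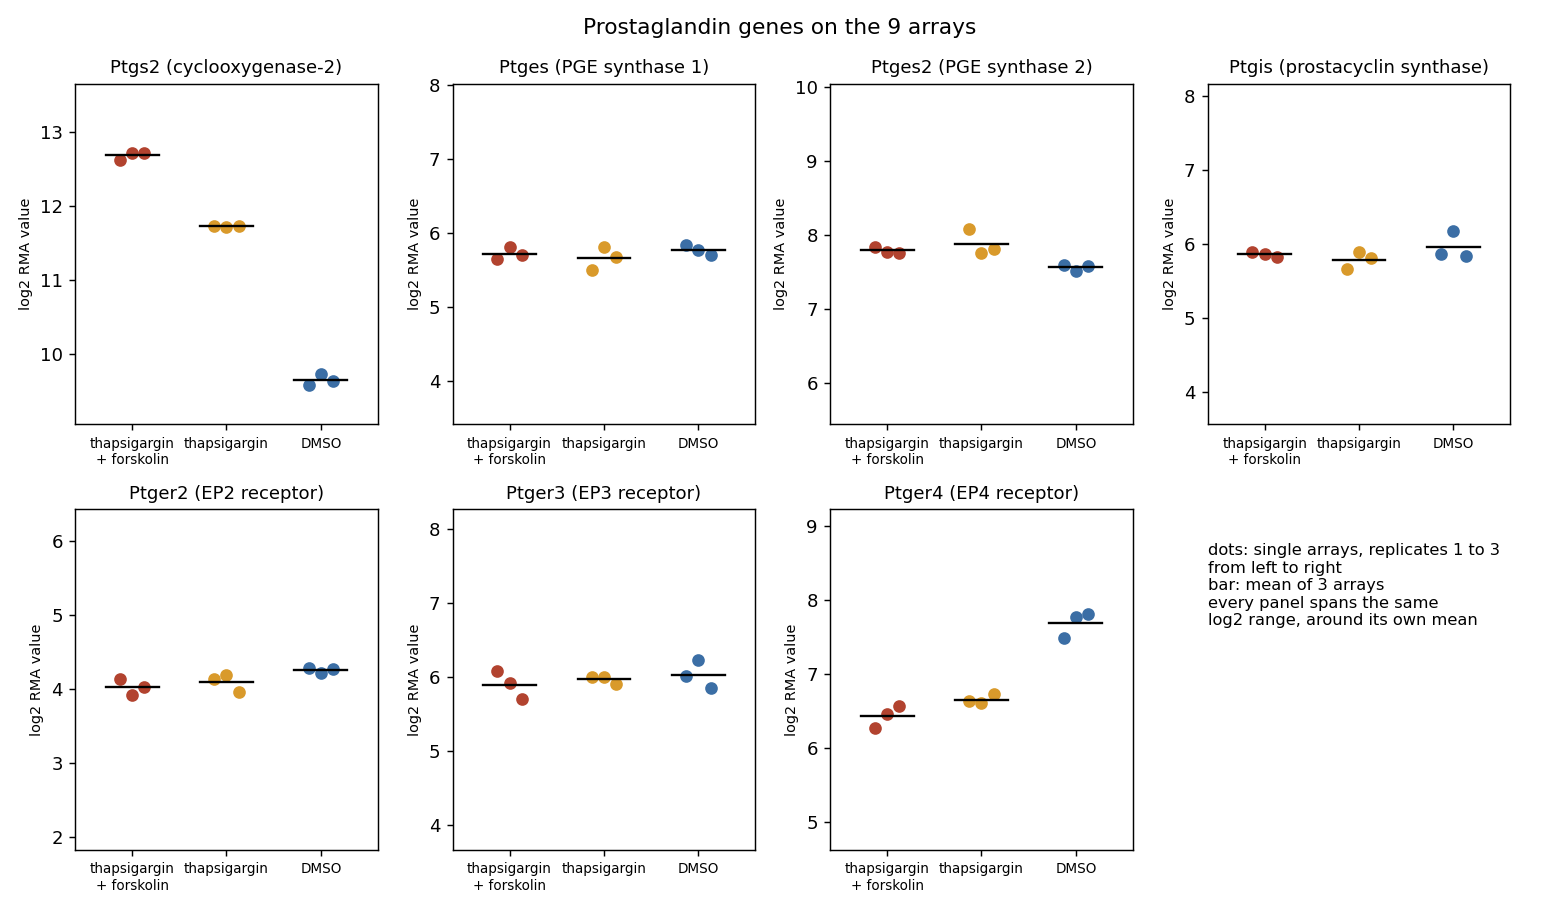
Log2 RMA values (vertical axes) of the 7 measured prostaglandin genes on each of the 9 arrays, with thapsigargin plus forskolin on the left, thapsigargin in the middle and DMSO on the right; dots are arrays, bars are means of 3, and all panels span the same log2 range. Ptgs2 forms 3 separate levels with means of 12.68, 11.72 and 9.64, and Ptger4 is lower in both treated groups (means 6.43 and 6.65) than in DMSO (7.69).

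Ptgs2, the cyclooxygenase gene, was the member with the clearest differences. Its log2 values were 12.61, 12.71 and 12.71 on the arrays with thapsigargin and forskolin, 11.73, 11.71 and 11.73 on those with thapsigargin alone, and 9.57, 9.73 and 9.62 on the DMSO arrays. The 3 groups did not overlap, and every value lay above the upper quartile of its array, DMSO included. Of all genes, 21.6% lay wholly higher with thapsigargin than with DMSO, 12.1% wholly higher with thapsigargin and forskolin than with thapsigargin, and 21.4% wholly higher with thapsigargin and forskolin than with DMSO. Thapsigargin replicates 1 and 3 had exactly the same deposited value, and such ties occurred in other genes too, Pla2g4a and Pla2g7 among them.

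Thapsigargin raised Ptgs2 4.24-fold over DMSO (log2 change 2.08 ± 0.06, limma standard error, n = 3 per group, limma adjusted p = 1.2e-08). Of all genes, 67 rose by more in this comparison. With forskolin added to thapsigargin, Ptgs2 was 1.94-fold above thapsigargin alone (log2 change 0.95 ± 0.06, limma adjusted p = 1.43e-05), and again 67 genes rose by more. Against DMSO the combined treatment gave an 8.21-fold rise (log2 change 3.04 ± 0.06, limma adjusted p = 2.17e-09), exceeded among rising genes by 12. The call was kept in each of the 18 alternative settings for all 3 comparisons. The highest deposited value of any probe set was 13.79, and saturation was not checked because scanner files were not used here.

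The promoter of Ptgs2 is shown because this gene rose with thapsigargin and rose further with forskolin added to it. That of Ptger4 is shown because it moved the other way. The windows hold 250 bases before and 50 after the start of the gene in RefSeq (build GRCm38.p6), 5′ to 3′ on the strand of the gene. Capitals mark matches to any of 6 motifs searched on both strands: the CRE half-site TGACG bound by cAMP-responsive factors, the C/EBP-like TTGCNNAA, the AP-1 site TGANTCA, the C/EBP-ATF element TGATGNAA, the NF-kB-like GGGNNTTCC and the E-box CACGTG.
Ptgs2, chr1:150099781-150100080, strand +: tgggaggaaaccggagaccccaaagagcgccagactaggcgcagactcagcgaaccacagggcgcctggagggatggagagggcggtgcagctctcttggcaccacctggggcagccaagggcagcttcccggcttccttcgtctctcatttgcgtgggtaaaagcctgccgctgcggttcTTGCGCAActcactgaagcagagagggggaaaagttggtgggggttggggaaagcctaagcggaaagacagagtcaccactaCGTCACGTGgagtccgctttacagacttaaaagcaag
Ptger4, chr15:5244138-5244437, strand -: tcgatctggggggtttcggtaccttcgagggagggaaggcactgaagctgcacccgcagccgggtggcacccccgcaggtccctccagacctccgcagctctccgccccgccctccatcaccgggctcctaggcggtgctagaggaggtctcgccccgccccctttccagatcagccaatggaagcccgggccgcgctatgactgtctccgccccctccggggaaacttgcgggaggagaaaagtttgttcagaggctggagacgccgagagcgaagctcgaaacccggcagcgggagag

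In the Ptgs2 window a C/EBP-like TTGCGCAA began 69 bases before the RefSeq start, and a CRE half-site read on the other strand began at base 14, counting the start as base 1. The CRE half-site overlapped an E-box that began at base 17, so these 2 matches share letters. Both lie within the 50 bases that follow the start that RefSeq gives. Of 32851 promoter windows of the same length, 20.8% held the CRE half-site, 10.8% the C/EBP-like site and 7.15% the E-box. The Ptger4 window matched 0 of the 6 motifs. Its GC content was 67.0%, against 59.3% in the Ptgs2 window and a median of 52.7% over all windows. Such a match is a run of letters and does not show that a factor binds there.

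A promoter window was given for 7 of the 9 genes, Ptgs1 included. Among these 7, Ptgs2 was the 1 gene with a CRE half-site. The C/EBP-like site was found in Ptgs2 and Ptger2, and the E-box in Ptgs2 and Ptges2. The AP-1 site, the C/EBP-ATF element and the NF-kB-like site were found in 0 of the 7, against shares of 7.81%, 3.97% and 5.82% over all windows.

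The values read for the terminal synthase genes moved little. Ptges encodes the membrane-bound PGE2 synthase that is known to act together with cyclooxygenase-2. It had log2 values of 5.65, 5.82 and 5.71 with thapsigargin and forskolin, 5.50, 5.82 and 5.68 with thapsigargin, and 5.84, 5.77 and 5.71 with DMSO. The 3 groups overlapped, and all 9 values lay below the medians of their arrays. The log2 difference was -0.11 for thapsigargin against DMSO (95% interval -0.30 to 0.08, limma adjusted p = 0.386) and 0.06 for thapsigargin with forskolin against thapsigargin (-0.13 to 0.25, limma adjusted p = 0.79). For thapsigargin with forskolin against DMSO it was -0.05 (-0.24 to 0.14, limma adjusted p = 0.717). The upper ends of these intervals lay below the changes of Ptgs2 in the same comparisons, but the genes were read by different probes. Detection of Ptges above background was not checked, so the intervals do not show that its transcript stayed level.

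Ptges2 encodes another PGE2 synthase, known as a constitutively expressed form. Its values were 7.85, 7.78 and 7.76 with thapsigargin and forskolin, 8.09, 7.76 and 7.81 with thapsigargin, and 7.60, 7.52 and 7.59 with DMSO. Every treated array was above every DMSO array, as upward for 21.6% of all genes with thapsigargin and 21.4% with thapsigargin and forskolin. The treated groups of Ptges2 overlapped each other, with thapsigargin replicate 1 the highest. Ptges2 rose 1.24-fold with thapsigargin (log2 change 0.32 ± 0.08, limma adjusted p = 0.0155), and 29.3% of all genes changed by more in either direction. Without DMSO replicate 2 this call was lost (limma adjusted p = 0.056). For thapsigargin with forskolin against DMSO the difference of 0.23 ± 0.08 did not pass (limma adjusted p = 0.067), nor did the difference of -0.09 ± 0.08 between the treated groups (limma adjusted p = 0.667). Thapsigargin with forskolin against DMSO passed for Ptges2 in 4 of 18 alternative settings, among them the fit of the 6 arrays compared (limma adjusted p = 0.0221).

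Ptgis encodes prostacyclin synthase, best known from vascular endothelium. It had values of 5.90, 5.87 and 5.83 with thapsigargin and forskolin, 5.66, 5.89 and 5.82 with thapsigargin, and 5.87, 6.18 and 5.84 with DMSO. The groups overlapped, and DMSO replicate 2 was the highest array. On 3 arrays the value lay below the median, and detection above background was not checked. The log2 difference was -0.17 for thapsigargin against DMSO (95% interval -0.39 to 0.05, limma adjusted p = 0.223), 0.07 for thapsigargin with forskolin against thapsigargin and -0.10 for thapsigargin with forskolin against DMSO. The last of these was 0.012 without DMSO replicate 2. The first was -0.062 without DMSO replicate 2, -0.11 without thapsigargin replicate 1 and -0.26 with array weights, not passing in any of them.

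**Figure D2:**
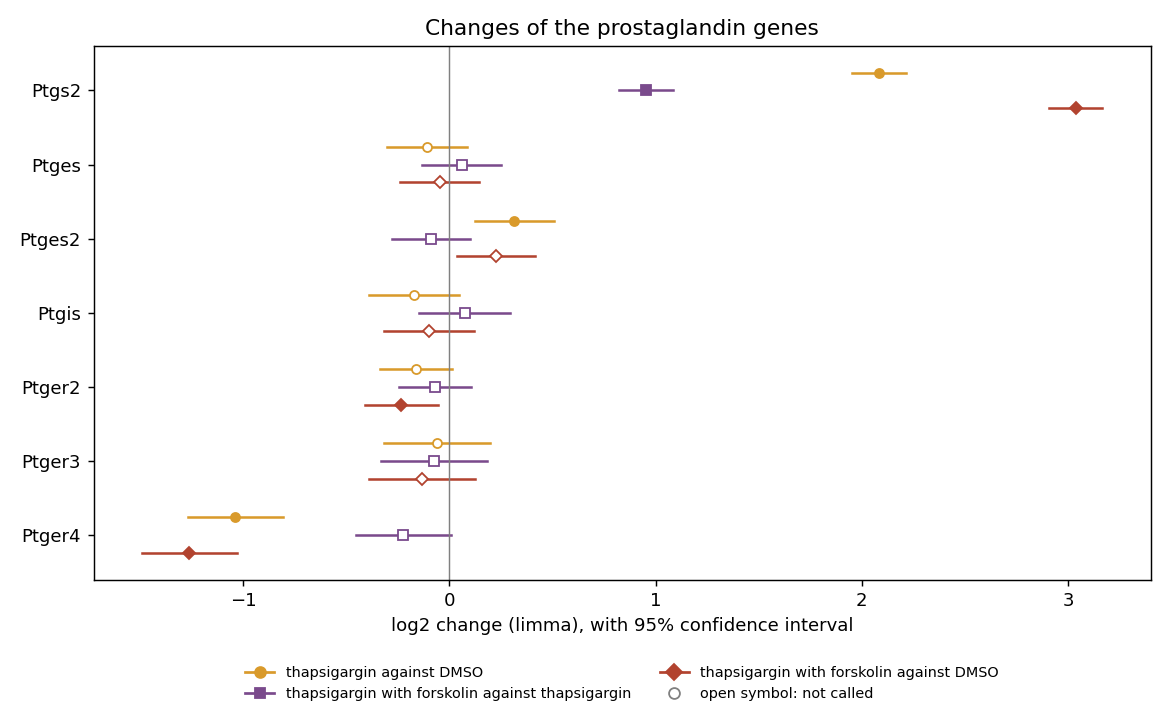
Log2 changes (horizontal axis) of the 7 genes in the 3 comparisons, with 95% confidence intervals from limma; filled symbols passed the adjusted test and open symbols did not. Ptgs2 lies to the right in all 3 comparisons (2.08, 0.95 and 3.04), Ptger4 to the left with thapsigargin (-1.04) and with thapsigargin and forskolin (-1.26) against DMSO, and the other intervals lie near 0.

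Among the receptors, Ptger4 fell. It encodes EP4, a PGE2 receptor that raises cAMP. Its log2 values were 6.26, 6.46 and 6.56 with thapsigargin and forskolin, 6.63, 6.60 and 6.72 with thapsigargin, and 7.48, 7.77 and 7.80 with DMSO. Both treated groups lay wholly below the DMSO group, as for 22.3% of all genes with thapsigargin and 21.2% with thapsigargin and forskolin. The arrays with thapsigargin and forskolin lay below those with thapsigargin alone by a narrow gap.

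Ptger4 was 2.05-fold lower with thapsigargin than with DMSO (log2 change -1.04 ± 0.10, limma adjusted p = 2.87e-05) and 2.40-fold lower with thapsigargin and forskolin than with DMSO (-1.26 ± 0.10, limma adjusted p = 8.58e-06). Among falling genes, 602 and 361 fell by more in these 2 comparisons. Adding forskolin to thapsigargin gave a log2 difference of -0.22 ± 0.10 that did not pass (limma adjusted p = 0.281; 95% interval -0.45 to 0.01). Leaving out 1 array at a time moved it between -0.29 and -0.14, with the smaller size without replicate 1 of the group with both agents. The values of these 2 groups did not overlap, as was the case downward for 14.0% of all genes. Both calls against DMSO were kept in each of 18 alternative settings, and the difference between the treated groups passed in 0 of 18.

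Ptger2 encodes EP2, which also raises cAMP. It had values of 4.14, 3.92 and 4.03 with thapsigargin and forskolin, 4.14, 4.20 and 3.97 with thapsigargin, and 4.29, 4.23 and 4.28 with DMSO. All 9 lay below the lower quartiles of their arrays, and detection above background was not checked. Every treated array was below every DMSO array, as for 22.3% of all genes downward with thapsigargin and 21.2% with thapsigargin and forskolin. The log2 change was -0.16 ± 0.08 for thapsigargin against DMSO (limma adjusted p = 0.151) and -0.23 ± 0.08 for thapsigargin with forskolin against DMSO (limma adjusted p = 0.0443). The call for thapsigargin with forskolin against DMSO held in 8 of 17 alternative settings and was lost, among others, with all probe sets tested (limma adjusted p = 0.0809) and with a trended robust prior (limma adjusted p = 0.0937). It was also lost without any 1 of DMSO replicates 1, 2 and 3, thapsigargin replicate 1, and replicates 2 and 3 of the group with both agents, at limma adjusted p = 0.0632 to 0.152.

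Ptger3 encodes EP3, which lowers cAMP. Its values were 6.084, 5.917 and 5.702 with thapsigargin and forskolin, 6.003, 6.010 and 5.908 with thapsigargin, and 6.017, 6.228 and 5.855 with DMSO. The groups overlapped in all comparisons. The log2 differences were -0.06, -0.07 and -0.13 for thapsigargin against DMSO, thapsigargin with forskolin against thapsigargin and thapsigargin with forskolin against DMSO, each with a standard error of 0.11, and limma adjusted p was 0.739, 0.815 and 0.418. The receptors for other prostanoids gave 0 calls among 4 measured of 5 in limma in each comparison; Tbxa2r, the thromboxane receptor gene, differed by -0.16 ± 0.08 with thapsigargin against DMSO (limma adjusted p = 0.161). At an unadjusted p below 0.05 the counts for these receptors were 0 in each comparison as well.

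Upstream of the cyclooxygenases, 2 of 19 measured phospholipase A2 genes rose and 3 fell with thapsigargin against DMSO. With thapsigargin and forskolin against thapsigargin 2 rose and 0 fell, and with thapsigargin and forskolin against DMSO 2 rose and 5 fell. Of all genes, 18.2% were called higher and 16.9% lower with thapsigargin against DMSO. The shares were 3.70% and 4.17% with forskolin added to thapsigargin, and 17.9% and 16.7% with both agents against DMSO. Pla2g4a encodes the cytosolic phospholipase A2 that releases arachidonic acid for cyclooxygenases. It had values of 9.55, 9.60 and 9.56 with thapsigargin and forskolin, 9.31, 9.32 and 9.31 with thapsigargin, and 8.74, 8.79 and 8.94 with DMSO. Like Ptgs2 it was highest with both agents and lowest with DMSO, without overlap. The log2 change was 0.49 ± 0.06 for thapsigargin against DMSO, 0.26 ± 0.06 for thapsigargin with forskolin against thapsigargin (limma adjusted p = 0.0319) and 0.75 ± 0.06 for thapsigargin with forskolin against DMSO. In these comparisons 21.6%, 12.1% and 21.4% of all genes lay wholly higher.

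The other named phospholipases have other substrates or sites. Pla2g12a, which encodes a secreted enzyme, rose 2.89-fold with thapsigargin against DMSO (log2 change 1.53 ± 0.11). Pla2g15, which encodes a lysosomal enzyme, fell by 0.73 ± 0.08 on the log2 scale. Pla2g7, which encodes the enzyme that inactivates platelet-activating factor, fell by 1.99 ± 0.07 with thapsigargin and was 0.60 ± 0.07 higher with forskolin added (limma adjusted p = 0.00106). Its values on the arrays with both agents were all identical (8.39), so its standard error holds no spread from that group.

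Of the 6 other prostanoid synthase genes measured, 1 rose and 3 fell with thapsigargin against DMSO, 2 rose with forskolin added to thapsigargin, and 1 rose and 1 fell with both agents against DMSO. The shares of all genes called higher and lower in these 3 comparisons were 18.2% and 16.9%, 3.70% and 4.17%, and 17.9% and 16.7%. Cbr1 encodes a carbonyl reductase that can turn PGE2 into prostaglandin F2alpha. It fell by 1.53 ± 0.09 with thapsigargin and was 0.49 ± 0.09 higher with forskolin added. Ptges3, which encodes the cytosolic PGE synthase and Hsp90 cochaperone p23, rose by 0.70 ± 0.23 with thapsigargin (limma adjusted p = 0.0423), with DMSO values spread over 5.31, 5.83 and 6.40. Hpgds and Tbxas1, the synthase genes for prostaglandin D2 and thromboxane, fell by 0.43 ± 0.08 and 0.41 ± 0.10 with thapsigargin; their values lay below the array median on 9 and 8 of the 9 arrays.

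Among 5 genes of prostaglandin transport and breakdown, 1 rose and 2 fell with thapsigargin against DMSO, 2 rose with forskolin added to thapsigargin, and 1 rose and 1 fell with both agents against DMSO. Among all genes, the shares called higher and lower were 18.2% and 16.9%, 3.70% and 4.17%, and 17.9% and 16.7% in these comparisons. Abcc4 encodes a transporter that exports PGE2. It had values of 11.30, 11.30 and 11.29 with thapsigargin and forskolin, 10.88, 10.88 and 10.89 with thapsigargin, and 9.58, 9.76 and 9.68 with DMSO. Abcc4 thus formed 3 levels in the same order as Ptgs2, with log2 changes of 1.21 ± 0.06 for thapsigargin against DMSO, 0.41 ± 0.06 for thapsigargin with forskolin against thapsigargin and 1.62 ± 0.06 for thapsigargin with forskolin against DMSO. In these comparisons 21.6%, 12.1% and 21.4% of all genes lay wholly higher. Slco2a1, which encodes the prostaglandin uptake carrier, changed by -0.19 ± 0.06 with thapsigargin and by 0.24 ± 0.06 with forskolin added. Ptgr1, which encodes a reductase of prostaglandin breakdown, fell by 0.31 ± 0.07 with thapsigargin. Hpgd, which encodes the dehydrogenase that starts that breakdown, differed by 0.15 ± 0.09 with thapsigargin (limma adjusted p = 0.258) and was chosen outside the naming rule for this role.

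Of 11 measured genes of G proteins, receptor kinases and arrestins that act with EP receptors, 1 rose and 5 fell with thapsigargin against DMSO. With thapsigargin and forskolin against thapsigargin 1 rose and 1 fell, and with thapsigargin and forskolin against DMSO 1 rose and 6 fell. Shares over all genes, higher and lower, were 18.2% and 16.9%, 3.70% and 4.17%, and 17.9% and 16.7% in the same order. Arrb1, which encodes beta-arrestin 1, fell by 1.08 ± 0.07 with thapsigargin, Gnaq by 0.71 ± 0.05 and Gnai2 by 0.63 ± 0.05. The receptor kinase gene Grk5 fell by 0.36 ± 0.07 with thapsigargin and by a further 0.42 ± 0.07 with forskolin added (limma adjusted p = 0.0072).

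Factors and RNA-binding proteins known to act on Ptgs2 or its transcript were a list of 12, of which 10 were measured. With thapsigargin against DMSO 2 rose and 4 fell, with thapsigargin and forskolin against thapsigargin 2 rose and 0 fell, and with thapsigargin and forskolin against DMSO 5 rose and 3 fell. In the same order, the shares of all genes called higher and lower were 18.2% and 16.9%, 3.70% and 4.17%, and 17.9% and 16.7%. Cebpd, which encodes a C/EBP factor, had values of 7.78, 7.89 and 7.87 with thapsigargin and forskolin, 6.33, 6.31 and 6.29 with thapsigargin, and 7.23, 7.22 and 7.28 with DMSO. It was thus lowest with thapsigargin alone and highest with both agents, an order that differs from that of Ptgs2. Cebpb, another C/EBP gene, had group means in the order of Ptgs2, at 9.0004 with thapsigargin and forskolin, 8.82 with thapsigargin and 8.22 with DMSO. It rose by 0.60 ± 0.06 with thapsigargin and by 0.78 ± 0.06 with both agents against DMSO, and its difference of 0.18 ± 0.06 between the treated groups did not pass (limma adjusted p = 0.158). The means of Creb1, which encodes a CRE-binding factor, were 9.02, 8.78 and 8.61 in the same order, and of the 3 comparisons it passed in that of both agents against DMSO (0.41 ± 0.06, limma adjusted p = 0.000715). Crem, which encodes a cAMP-responsive factor, rose by 0.83 ± 0.05 with forskolin added and differed by -0.07 ± 0.05 with thapsigargin alone (limma adjusted p = 0.389). Fos fell by 2.51 ± 0.06 with thapsigargin against DMSO, and Zfp36, which encodes a protein that destabilises Ptgs2 transcripts, fell by 1.18 ± 0.08. Neither passed with forskolin added to thapsigargin, at 0.14 ± 0.06 and 0.09 ± 0.08. Cebpb and Creb1 were named after their values were seen. In the rest of the list, with thapsigargin against DMSO, Jun fell by 0.37 ± 0.06 and Elavl1 rose by 0.57 ± 0.06. Rela and Tia1 differed by -0.06 ± 0.06 and 0.01 ± 0.09 and were not called. None of Jun, Elavl1, Rela and Tia1 passed with forskolin added to thapsigargin.

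**Figure D3:**
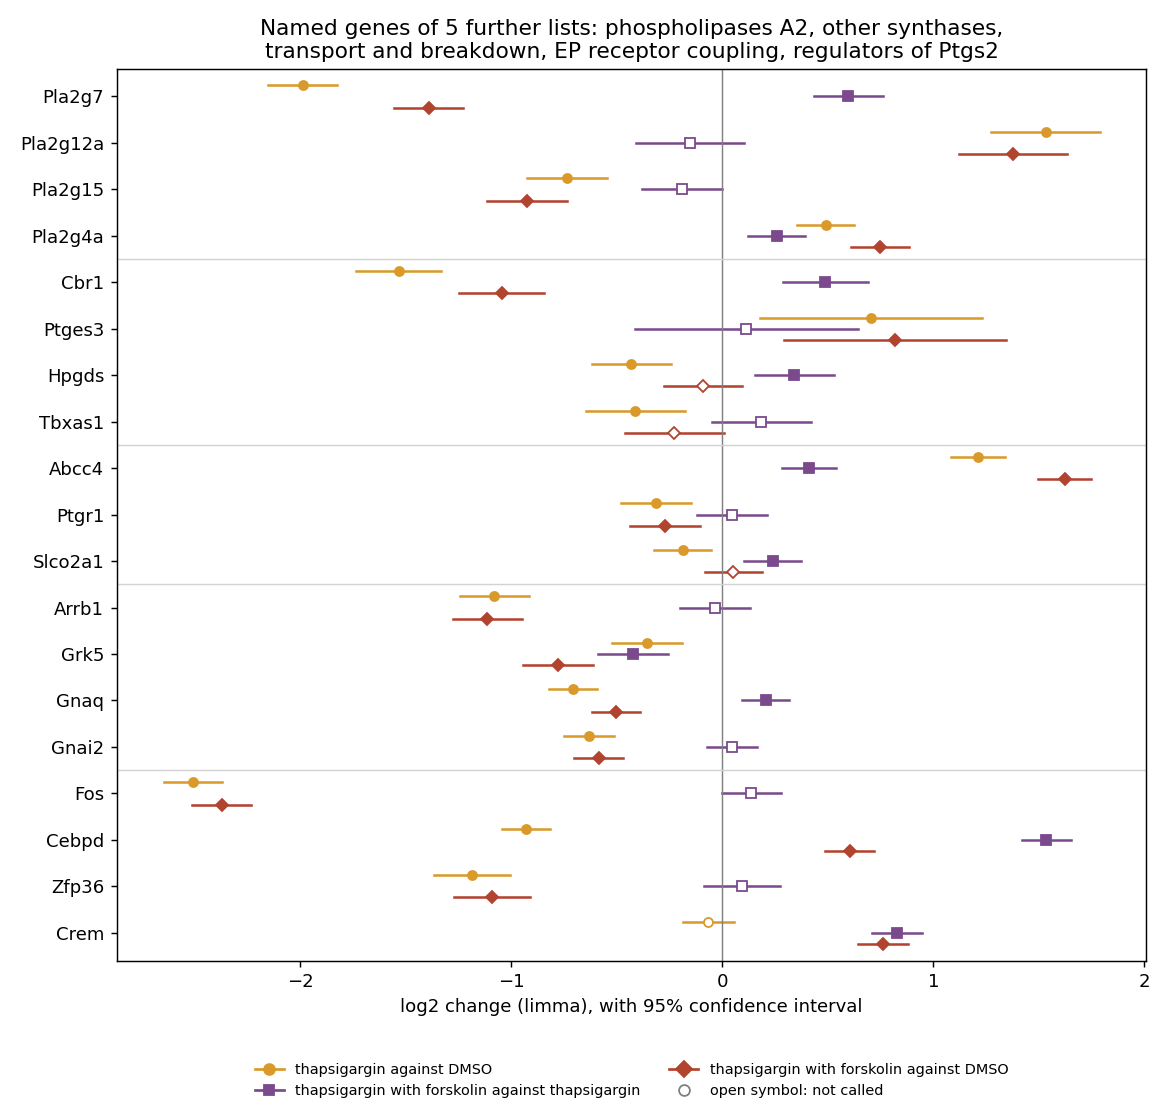
Log2 changes (horizontal axis) with 95% confidence intervals from limma in the 3 comparisons for the named genes of 5 further lists, parted by grey lines; filled symbols passed the adjusted test. Abcc4 and Pla2g4a passed to the right in all 3 comparisons. Pla2g7, Cbr1, Hpgds, Slco2a1, Gnaq and Cebpd passed to the left with thapsigargin against DMSO and to the right with forskolin added to thapsigargin.

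Among 12546 genes compared, those most like Ptgs2 over the 9 arrays were Jade1 (Pearson r = 0.999), Kctd15 (0.999), Slc16a1 (0.999), Saraf (0.998) and Pim1 (0.997). The arrays form 3 groups, so these correlations mostly describe group means and are given with no test. The group means of Slc16a1, a lactate transporter gene, were 10.60 with thapsigargin and forskolin, 9.91 with thapsigargin and 8.19 with DMSO. Saraf, whose protein limits store-operated calcium entry, had means of 11.51, 11.27 and 10.68 in the same order. For Ptger4 the closest were Sesn1 (r = 0.996), Mki67 (0.995), Pald1 (0.995), Trim7 (0.995) and Erap1 (0.994). Erap1, which encodes a peptidase of the endoplasmic reticulum, had means of 7.94 with thapsigargin and forskolin, 8.23 with thapsigargin and 9.35 with DMSO.

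**Figure D4:**
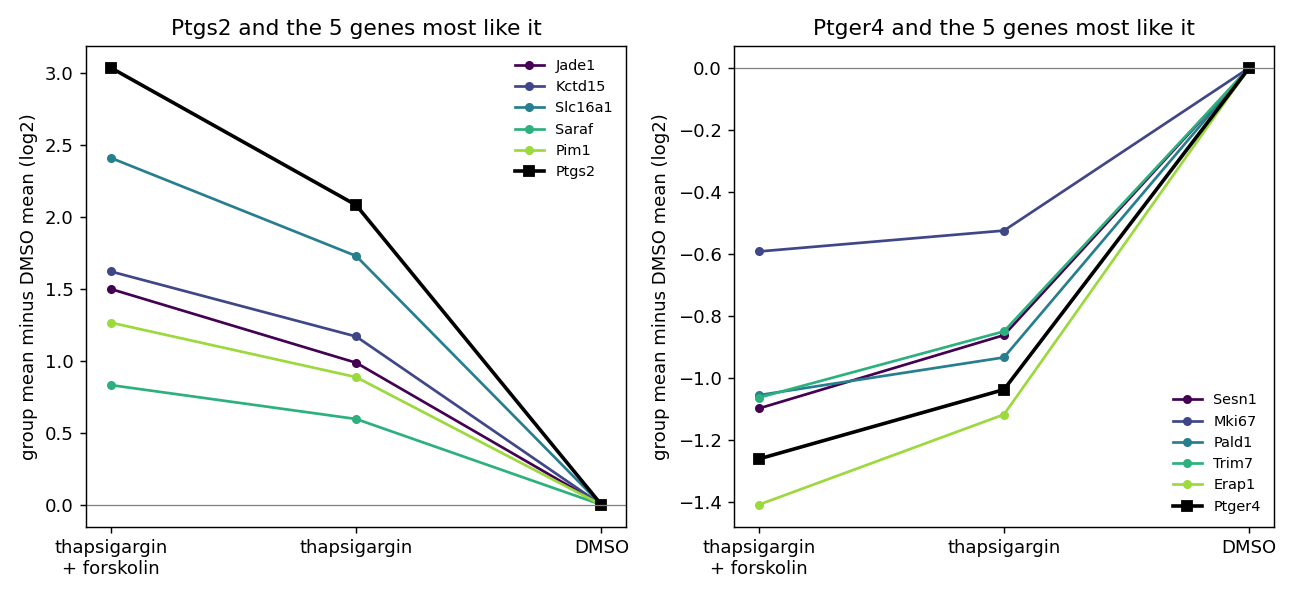
Group mean minus DMSO mean on the log2 scale (vertical axis) for Ptgs2 and the 5 genes most like it (left) and for Ptger4 and the 5 genes most like it (right), with thapsigargin plus forskolin, thapsigargin and DMSO from left to right; lines join the means of 1 gene. Each line keeps the order of its lead gene, with Ptgs2 reaching 3.04 and Ptger4 -1.26.

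The cells were checked against markers. Of 9 podocyte markers measured among 11, 0 lay below the lower quartile on every array, and 5 of the 9 fell and 1 rose with thapsigargin against DMSO. Over all genes, 16.9% were called lower and 18.2% higher in that comparison. Plce1, which encodes a phospholipase C, averaged 6.46 with thapsigargin and forskolin, 7.75 with thapsigargin and 11.19 with DMSO. With thapsigargin against DMSO, Actn4 fell by 0.39 ± 0.05, while Cd2ap rose by 0.23 ± 0.05. Nphs1, Tcf21 and Ptpro differed by -0.16, -0.04 and -0.09 and were not called. Ptpro lay below the array median on all 9 arrays. The log2 of the summed podocyte markers was 12.31 to 12.38 with thapsigargin and forskolin, 12.67 to 12.71 with thapsigargin, and 13.24 to 13.27 with DMSO. Genes with high values weigh most in such a sum, here Actn4, Cd2ap and Plce1, with DMSO means of 11.82, 11.33 and 11.19.

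Markers of other cell types were mostly not called outside the tubular list, and in several lists 1 gene moved much more than the others. For comparison, 18.2% of all genes were called higher and 16.9% lower with thapsigargin against DMSO. With forskolin added to thapsigargin these shares were 3.70% and 4.17%. Summed endothelial markers, given because of Ptgis, were 9.57 to 9.70 with thapsigargin and forskolin, 9.71 to 9.76 with thapsigargin and 10.61 to 10.68 with DMSO. Of the 7, 2 fell with thapsigargin against DMSO, Ehd3 by 1.21 ± 0.07 and Tie1 by 0.47 ± 0.12, and 5 were not called, with Cdh5 at 0.22, Kdr at 0.13 and Tek at 0.06. Emcn lay below the lower quartile on every array. Summed mesangial markers were 10.18 to 10.20, 9.97 to 9.99 and 10.77 to 10.83 in the same order of groups. Pdgfrb fell by 1.23 ± 0.05 with thapsigargin against DMSO, and the other 6 of 7 were not called, with Cspg4 at 0.06 and Gata3 at -0.02. Summed macrophage and leukocyte markers were 9.97 to 10.08, 9.47 to 9.59 and 9.74 to 9.78, with 0 of 7 higher and 1 lower with thapsigargin against DMSO. With forskolin added to thapsigargin 2 of the 7 rose, Cd14 among them by 0.87 ± 0.09, and Ptprc lay below the lower quartile on every array. Summed tubular markers were 10.45 to 10.49, 10.28 to 10.35 and 12.70 to 12.73. Of these 8 markers 4 fell with thapsigargin against DMSO. Cdh16 fell by 3.37 ± 0.05, Aqp1 by 3.24 ± 0.05, Lrp2 by 1.03 ± 0.09 and Krt19 by 0.22 ± 0.05. Slc34a1, Umod, Aqp2 and Cdh1 differed by -0.05, -0.09, -0.03 and -0.11 and were not called. Aqp1 lay above the upper quartile on all 9 arrays and Cdh16 on 8, with DMSO means of 11.71 and 11.16. The part of these markers in the results for the prostaglandin genes was not tested.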

How the data were processed

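The authors deposited 1 log2 value per probe set and array, for which the submitters' processing notes name affy and RMA. No source used here gives their versions, or the array annotation or genome build used in that processing. RMA makes the arrays alike, so a change in total RNA cannot be seen. The depth of an array is not a count, and the number of arrays limits the precision. Detection was not checked because scanner files were not used here.

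Of 41345 probe sets, 23521 had 1 gene symbol, 1814 several and 16010 none. Each gene was read from its brightest probe set (mean of 9 arrays), giving 22180 genes with no filter on low values. Titles gave groups and replicate numbers. A single fit in limma 3.58.1 (R 4.3.3) estimated the group means from the 9 arrays (6 residual degrees of freedom), with eBayes, two-sided, and Benjamini-Hochberg adjustment over all genes; the procedure was tested on simulated data. Errors are limma standard errors.

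All members are named. Of each further list up to 4 called genes with the largest change over the comparisons are named, or the highest where none was called, and of marker lists up to 3 with the highest mean. Genes most alike had the highest Pearson correlation with Ptgs2, and with the other member of largest F, among genes with a group mean above the median of all values, 5.84, without clone and predicted names. Hpgd, Cebpb, Creb1, Jun, Elavl1, Rela, Tia1, Tie1, Tek, Emcn, Ptprc and Ptgs2os were named outside this rule, after their values were seen. So were Pla2g4f, Nphs1, Tcf21, Ptpro, Krt19, Slc34a1, Umod, Aqp2 and Cdh1. Members and lists were chosen with earlier results of these data known. Alternatives were a fit of 6 arrays, a trended robust prior, array weights, 2 scalings, a filter on dim genes, other uses of probe sets, a replicate block and each array left out. Promoter windows came from RefSeq (GRCm38.p6), with their positions in that build, and gene names were checked in its gene table. Python 3.11.15 and matplotlib 3.10.9 drew the figures.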

Additional observations from a re-analysis of the deposited data

How the results depend on the processing

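Over 18 alternative settings, 353 of 372 member changes kept their direction and their side of the threshold. Some settings could by construction not move a member's log2 change, only its error or adjusted p. They include the fit of 6 arrays, the trended robust prior, the filter on dim genes and the other uses of probe sets. The calls for Ptgs2 in 3 comparisons and for Ptger4 in both comparisons against DMSO were kept in all 18. Ptges and Ptger2 gave no value under the filter on dim genes, since no group mean of theirs was above the median of all values. For thapsigargin with forskolin against DMSO the count of members called higher was 2 in the fit of the 6 arrays compared, among genes above the median level and with the replicate block, through Ptges2. The count called lower was 1 with a trended robust prior, with all probe sets tested, among genes above the median level and with the replicate block, through Ptger2. Leaving out 1 array at a time gave 1 to 2 members higher in thapsigargin against DMSO, and 1 to 2 higher and 1 to 2 lower in thapsigargin with forskolin against DMSO. The cause was not tested.

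The sign turned in 5 cases, none of them called. Ptger3 in thapsigargin against DMSO ranged from -0.15 to 0.037 over the arrays left out, the high end without DMSO replicate 2, and Ptgis in thapsigargin with forskolin against DMSO from -0.16 to 0.012, again without DMSO replicate 2. In thapsigargin with forskolin against thapsigargin, Ptges ranged from -0.020 to 0.14 and Ptges2 from -0.15 to 0.012, both turning without thapsigargin replicate 1, and Ptger3 from -0.16 to 0.027, turning without thapsigargin with forskolin replicate 3. In that comparison 924 of all genes were called lower, against 586 when thapsigargin replicate 1 was left out, 568 when thapsigargin replicate 3 was and 600 when replicate 2 with both agents was.

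Groups share replicate numbers in the titles, but same-numbered arrays did not deviate together throughout. Of 9 same-numbered pairs 4 had a correlation above 0.1, over a range of -0.07 to 0.25, beside -0.30 to 0.25 for other pairs. The pairs of replicate 3 all lay above 0.1, at 0.21, 0.23 and 0.18. Among other pairs the values above 0.1 were 0.25 and 0.17. The source of these correlations was not tested. Not every array correlated best with those of its own number, and the numbers were not used as pairs. With the replicate block, the adjusted p for thapsigargin with forskolin against DMSO was 0.0412 for Ptges2 (limma) and 0.0533 for Ptger2, and no other call of a member changed.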

Other observations

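The neighbouring branch of arachidonic acid metabolism held 1 large change. Of 12 measured leukotriene and lipoxygenase genes, 1 rose and 3 fell with thapsigargin against DMSO, 0 rose and 1 fell with forskolin added to thapsigargin, and 0 rose and 2 fell with both agents against DMSO. All genes were called higher and lower at shares of 18.2% and 16.9%, 3.70% and 4.17%, and 17.9% and 16.7% in these comparisons. Cysltr1, which encodes a receptor for cysteinyl leukotrienes, had log2 values of 4.46, 5.01 and 4.81 with thapsigargin and forskolin, 5.07, 5.06 and 5.41 with thapsigargin, and 7.37, 7.34 and 7.39 with DMSO. The treated arrays lay below every DMSO array, as for 22.3% of all genes with thapsigargin and 21.2% with thapsigargin and forskolin. All 6 treated values of Cysltr1 lay below the medians of their arrays. The log2 change was -2.19 ± 0.14 for thapsigargin against DMSO (limma adjusted p = 1.51e-06) and -2.61 ± 0.14 for thapsigargin with forskolin against DMSO, while the difference of -0.42 ± 0.14 between the treated groups did not pass (limma adjusted p = 0.123).

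Lta4h, which encodes the hydrolase that makes leukotriene B4, rose by 0.37 ± 0.06 with thapsigargin against DMSO and fell by 0.28 ± 0.06 with forskolin added to thapsigargin (limma adjusted p = 0.019). Ltb4r1, which encodes a leukotriene B4 receptor, fell by 0.29 ± 0.08 with thapsigargin, and Alox12, a lipoxygenase gene, fell by 0.23 ± 0.08. The values of Ltb4r1 and Alox12 lay below the array medians on all 9 arrays.

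Ptgs2os, an antisense transcript beside Ptgs2 that was looked at because of its place, had log2 values of 5.98, 5.99 and 5.84 with thapsigargin and forskolin, 5.68, 5.78 and 5.78 with thapsigargin, and 5.77, 5.74 and 5.45 with DMSO. It differed by 0.09 ± 0.09 with thapsigargin against DMSO (limma adjusted p = 0.498) and by 0.19 ± 0.09 with forskolin added to thapsigargin (limma adjusted p = 0.288). It rose by 0.28 ± 0.09 with thapsigargin and forskolin against DMSO (limma adjusted p = 0.035).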
